A study of Rattus norvegicus with 3 samples.

Results

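The genes described here encode proteins of the dense-core secretory granule and the enzymes that cut peptide precursors inside it. They are Chga (ENSRNOG00000052549), Chgb (ENSRNOG00000021269), Scg2 (ENSRNOG00000015055), Scg3 (ENSRNOG00000010784), Scg5 (ENSRNOG00000007542), Pcsk1 (ENSRNOG00000011107), Pcsk2 (ENSRNOG00000005438), Pcsk1n (ENSRNOG00000046021), Cpe (ENSRNOG00000043387) and Vgf (ENSRNOG00000001416). The 10 genes were chosen by name and matched by symbol to 10 of the 23098 features listed in each library. The choice was made with earlier results of these libraries known, among them the higher Chga level under urolithin A in D1 neurons. Every value of urolithin A over high anxiety in D1 neurons is therefore given as a description.

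Neurons store peptides in dense-core granules, which bud from the Golgi, mature along the axon and dendrites, and release their content on strong or repeated stimulation. Granins such as chromogranins and secretogranins pack the granule core, prohormone convertases cut precursors at pairs of basic residues, carboxypeptidase E trims the exposed ends, and small binding proteins hold the convertases in check until the granule matures. In the nucleus accumbens, spiny projection neurons use this machinery for dynorphin, enkephalin and substance P, and interneurons use it for somatostatin and neuropeptide Y.

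Nuclei were isolated from punches of the nucleus accumbens of outbred Wistar rats aged 16 weeks and sequenced as single-nucleus RNA libraries, with 1 library for each of 3 groups. The urolithin A library came from rats classed as high anxiety that received urolithin A, a gut microbial metabolite of dietary ellagitannins, for 2 months. The high anxiety library came from untreated rats classed as high anxiety, and the low anxiety library from untreated rats classed as low anxiety. Behaviour in an elevated plus maze and in open field and object tests set the anxiety class, and each library pooled punches from 5 hemispheres. With no replicates, no test could be made. Intervals are 95% intervals of the count alone, and differences between animals, dissections or libraries cannot be told apart from differences between groups.

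The files held 3739 barcodes in the urolithin A library, 4066 in the high anxiety library and 3619 in the low anxiety library, with 16728049 to 22095390 unique molecular identifiers (UMIs) a library. Of these, 3421, 3694 and 3379 nuclei were kept in the urolithin A, high anxiety and low anxiety libraries. The libraries shared 6 barcodes between urolithin A and high anxiety, 6 between high anxiety and low anxiety, and 4 between urolithin A and low anxiety. Nuclei were clustered without the 10 genes, and classes were named from marker genes, so each class name means nuclei like that type. D1 neurons numbered 753, 665 and 771 nuclei in the urolithin A, high anxiety and low anxiety libraries, and D2 neurons 536, 508 and 558. Glutamatergic neurons (21, 194 and 99 nuclei), cholinergic interneurons (26, 18 and 15 nuclei) and proliferating cells (4, 109 and 36 nuclei) were too few in at least 1 library for comparison. D1 neurons were a cluster led by Ebf1, Reln and Pdyn and a second led by Nmb, Il20ra and Rasgrf2, whose D1 name was weak, with none of the D1 markers among its 10 leading genes.

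The granins were neuronal genes, with 1 exception. Levels are UMIs per 1000000 UMIs of the class (CPM). Chga, the founding chromogranin, was highest in GABAergic interneurons, at 731, 511 and 640.3 CPM in the urolithin A, high anxiety and low anxiety libraries. It stood at 436, 267 and 319 CPM in D2 neurons and 361, 178 and 248 CPM in D1 neurons of the same libraries. The GABAergic level was above every other class in all 3 libraries, while D2, eccentric spiny, cholinergic and D1 levels overlapped with their neighbours in that order. In oligodendrocytes Chga was at 9.29, 10.2 and 13.8 CPM in the urolithin A, high anxiety and low anxiety libraries. In astrocytes it was at 42.1 CPM under urolithin A and 25.5 CPM in low anxiety, with no UMI in the 139 high anxiety nuclei.

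Chgb, the second chromogranin, was highest in the eccentric spiny neurons, a class named apart from the classical D1 and D2 types. The largest cluster of this class was led by Mdfic and Casz1. A cluster led by Stac and Exph5 took the name weakly, with 0 eccentric markers among its 10 leading genes. It held 104 of the 360 low anxiety nuclei of the class. Chgb reached 849.9, 621 and 785 CPM in the class in the urolithin A, high anxiety and low anxiety libraries. Its range overlapped that of GABAergic interneurons, at 643, 412 and 606 CPM. Scg2, the precursor of secretoneurin, was highest in GABAergic interneurons (719, 579.9 and 718 CPM) and lowest among neurons in cholinergic interneurons (50.3, 78.3 and 32.7 CPM). Scg3, which tethers chromogranin A to the granule membrane, was the exception. Its highest level was in astrocytes, at 1338, 1158 and 1464 CPM in the urolithin A, high anxiety and low anxiety libraries, against 32.7, 21.7 and 42 CPM in D1 neurons. Astrocytes gave 26.9% of the Scg3 UMIs of all kept nuclei and were 4.61% of those nuclei.

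The convertases and their partners split the neurons in other ways. Pcsk1, the early-acting convertase, was low in most classes and highest in cholinergic interneurons, the Chat-positive cells that supply striatal acetylcholine, at 162, 132 and 137 CPM in the urolithin A, high anxiety and low anxiety libraries. The next class, glutamatergic neurons, had 48.2, 49.6 and 46 CPM, and the 2 ranges did not overlap. Pcsk2, the convertase that completes many neuropeptides, was highest in eccentric spiny neurons (1338, 1396 and 1369 CPM) and low in GABAergic interneurons (220.2, 276 and 254 CPM). Scg5, the chaperone that carries the Pcsk2 protein to the granule, had 1953, 1464 and 1832 CPM in GABAergic interneurons, where Pcsk2 was low. Over all 11 classes, GABAergic interneurons included, the log2(CPM + 1) levels of both genes ran largely together, with a Pearson r of 0.882 over classes that share the same 3 libraries. This was not particular to the pair, as Pcsk2 had a higher r with Chgb (0.92) and Scg5 with Chga (0.96). The number of Pcsk2 UMIs for each Scg5 UMI was 0.113, 0.189 and 0.139 in GABAergic interneurons of the urolithin A, high anxiety and low anxiety libraries and 0.623, 1.02 and 0.829 in D1 neurons.

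**Figure D1:**
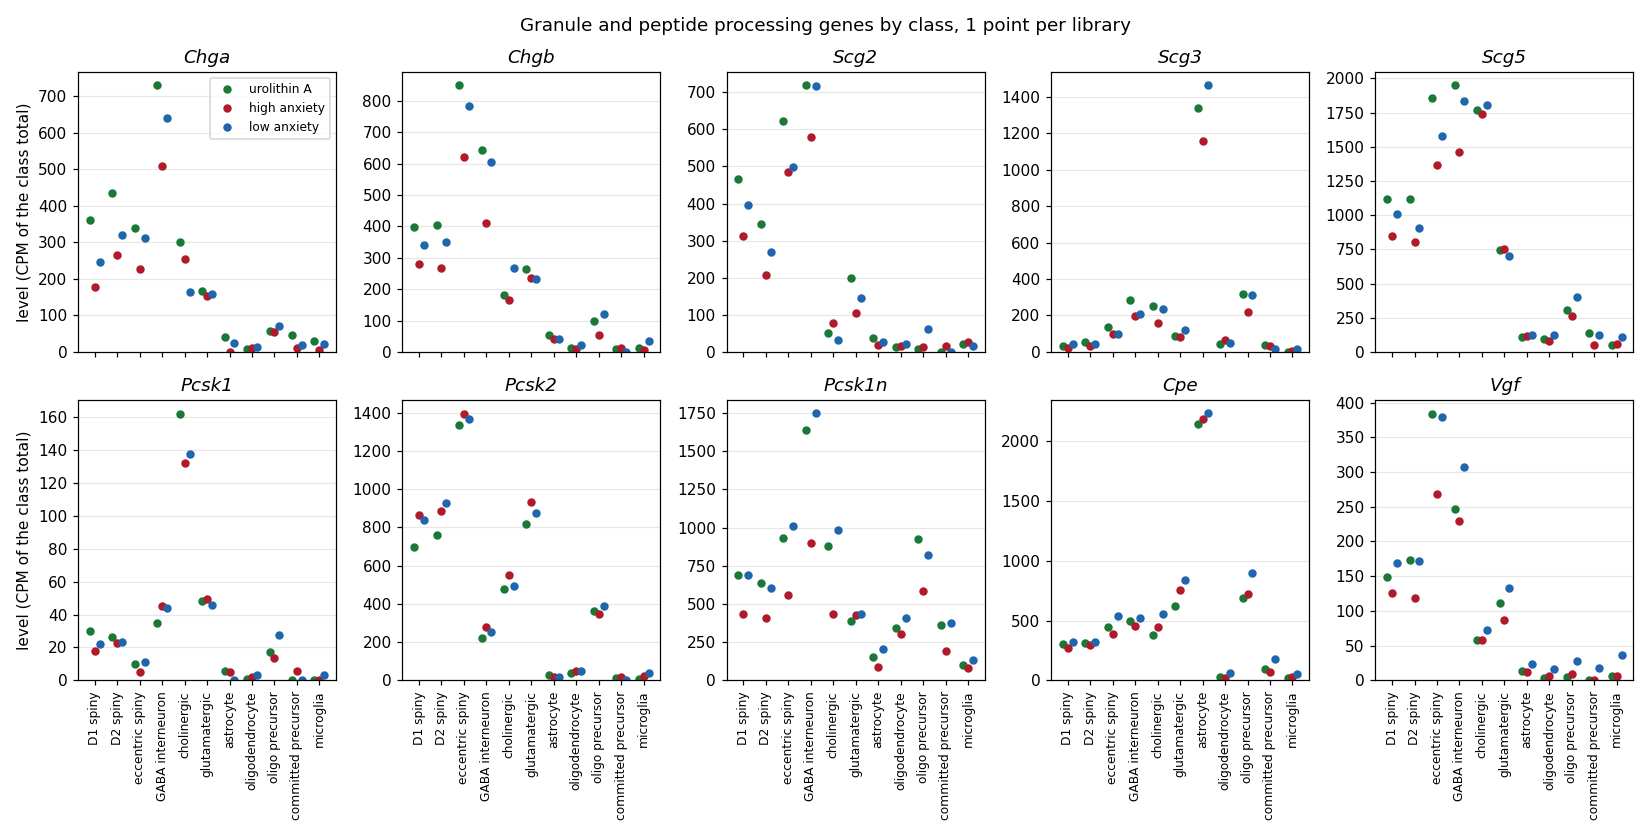
Level of each gene in 11 classes, in UMIs per 1000000 UMIs of the class (CPM, linear axes from 0), with 1 point per library for urolithin A, high anxiety and low anxiety. Scg3 and Cpe peak in astrocytes, Pcsk1 in cholinergic interneurons, Pcsk2 in eccentric spiny neurons, and Chga in GABAergic interneurons, where it had 731, 511 and 640.3 CPM.

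Pcsk1n, whose product proSAAS binds and inhibits the Pcsk1 enzyme, was found in neurons and in the oligodendrocyte lineage. It had 1637, 900.2 and 1752 CPM in GABAergic interneurons of the urolithin A, high anxiety and low anxiety libraries, 924, 584 and 817 CPM in oligodendrocyte precursors and 343, 303 and 407 CPM in oligodendrocytes. For shares of nuclei, those with fewer than 2000 UMIs were left out and the rest were thinned to 2000 UMIs. This kept 360 of 678, 454 of 739 and 184 of 525 oligodendrocytes in the urolithin A, high anxiety and low anxiety libraries. Of these, 45.0%, 45.6% and 52.2% held a Pcsk1n UMI, against 1.39%, 1.54% and 2.17% for Chga. Unthinned, the oligodendrocyte shares were 50.7%, 50.3% and 52.6% for Pcsk1n and 1.92%, 2.03% and 2.67% for Chga, at median depths of 2050, 2182 and 1751 UMIs. There were 3.72, 3.70 and 3.23 Pcsk1n UMIs for each Scg5 UMI in oligodendrocytes and 0.615, 0.515 and 0.682 in D1 neurons of the urolithin A, high anxiety and low anxiety libraries. The ratio was also higher than in D1 neurons in oligodendrocyte precursors, at 2.99, 2.21 and 2.04, and, on 17 to 60 Scg5 UMIs a library, in astrocytes (1.39, 0.745 and 1.62) and microglia (1.88, 1.46 and 1.26). The part of free RNA from other nuclei in these glial values was not tested.

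Cpe, carboxypeptidase E, was highest in astrocytes, at 2143, 2185 and 2234 CPM in the urolithin A, high anxiety and low anxiety libraries, and stood at 305, 272 and 323 CPM in D1 neurons. A Cpe UMI was found in 97.1%, 97.5% and 97.3% of astrocytes thinned to 2000 UMIs. Those were 104 of 125, 118 of 139 and 113 of 220 astrocytes in the same libraries. Vgf, a granin-like precursor named for its induction by nerve growth factor, was highest in eccentric spiny neurons (384, 268 and 379 CPM) and had 2.65, 5.64 and 16.8 CPM in oligodendrocytes. The CPM of all 10 genes was lower in oligodendrocytes of urolithin A than in those of low anxiety, in several of them on few UMIs. Only 4 of the 10 had at least 150 UMIs over the 3 libraries there. Of these, 1 was lower by the counting rule given below, against 4.13% of all features with that many UMIs. The share of all features with a lower CPM was not computed, so nothing is read from the shared direction. The 8 D2 marker genes summed to 44.5, 45.7 and 104 CPM in oligodendrocytes of the urolithin A, high anxiety and low anxiety libraries, with Sp9 at 0 in all 3, Ttc12 also at 0 under urolithin A and Grik3 in high anxiety. Their part in the glial levels was not tested.

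Within the neurons, single clusters stood apart. Among interneurons the Npy, Sst and Chodl cluster had 609, 509 and 1161 CPM of Vgf in the urolithin A, high anxiety and low anxiety libraries, while the Trh and Pthlh cluster had 50.4, 51.9 and 85.2 CPM. The opposite order held for Scg2, at 563, 485 and 904 CPM in the Npy cluster and 1088, 944 and 1015 CPM in the Trh cluster. Both clusters belong to the same class, and their Vgf ranges did not overlap. The Npy cluster held 47, 22 and 27 nuclei and the Trh cluster 88, 66 and 37 in those libraries. Each thus had fewer than 50 nuclei in at least 1 library. Among spiny neurons, Scg2 was highest in the Chst9 and Col14a1 cluster, at 1391, 990.2 and 1211 CPM, and Pcsk2 was low there, at 179.9, 280.0 and 245 CPM. The neighbouring Mdfic and Casz1 cluster, also eccentric, had 1596, 1625 and 1730.3 CPM of Pcsk2. Pcsk1 gave no UMI in the Chst9 cluster of the high and low anxiety libraries and 4.86 CPM under urolithin A. That cluster held 45, 65 and 52 nuclei in the urolithin A, high anxiety and low anxiety libraries. The whole eccentric class had 13, 10 and 19 Pcsk1 UMIs, so these cluster levels are near the floor and no difference is read from them.

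**Figure D2:**
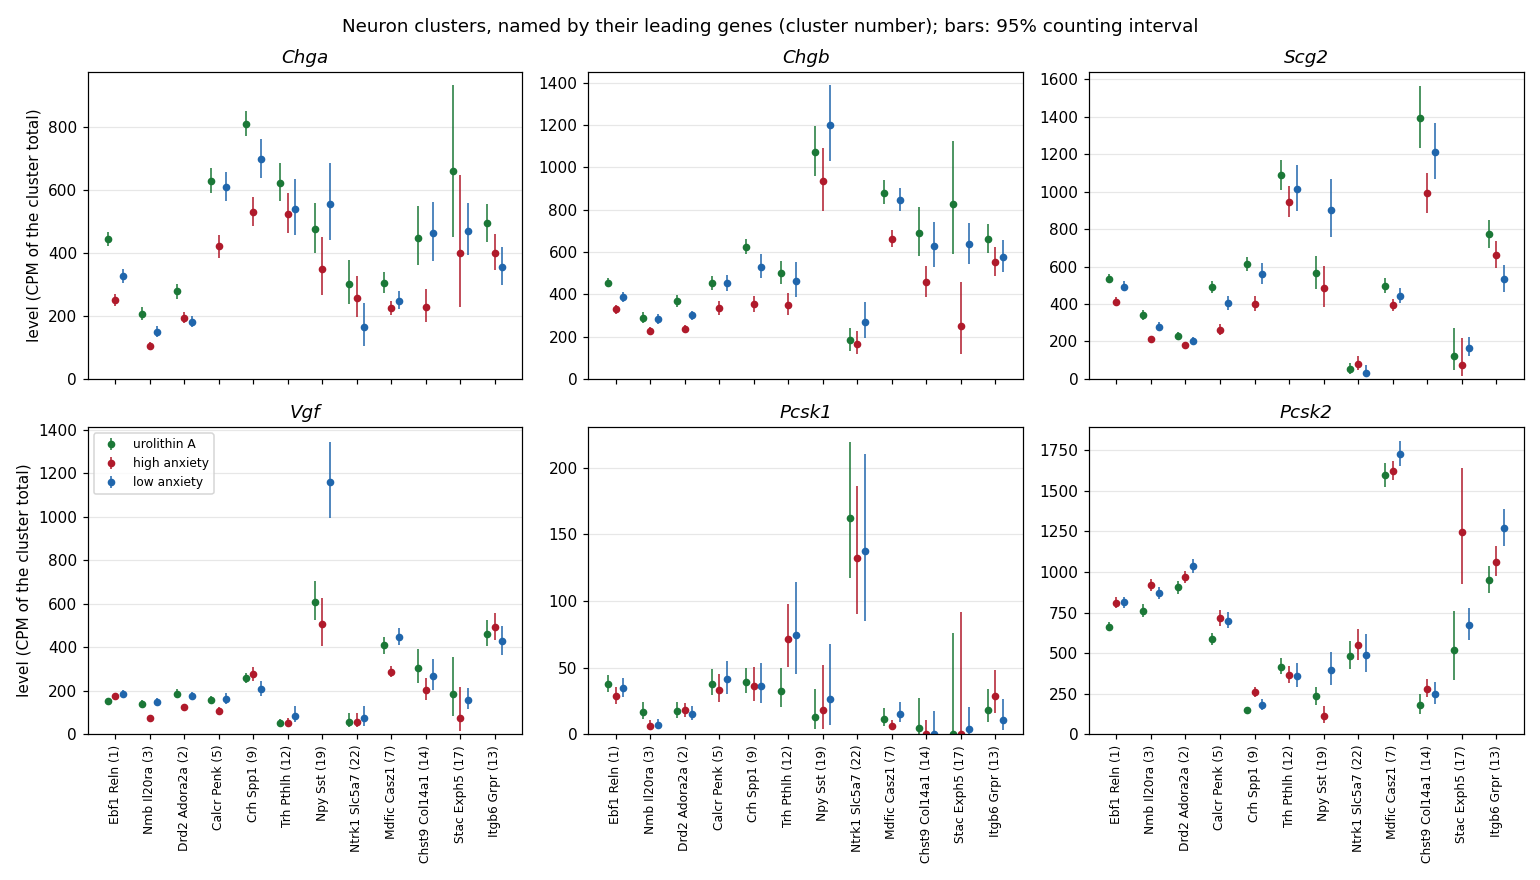
Levels of 6 genes in 12 neuron clusters named by leading genes, in CPM of the cluster total (linear axes from 0), with 1 point per library and bars for the 95% counting interval. Vgf is highest in the Npy Sst cluster (609, 509 and 1161 CPM in urolithin A, high anxiety and low anxiety), on 47, 22 and 27 nuclei. Pcsk2 is highest in the Mdfic Casz1 cluster, and Scg2 in the Chst9 Col14a1 cluster.

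Scg2 and Vgf had the most alike profiles of any pair of the 10 genes, with a Pearson r of 0.98 over the mean log2(CPM + 1) of 11 classes. Each was the gene most like the other among 12143 genes, and the classes share libraries and depth. The lowest r was 0.11, between Scg3 and Chga. The 5 genes most like Chga were Ttc3, Ppig, Zfp42l, Inha and Myadml2, with r from 0.97 to 0.98. Scg5 was nearest RGD1559441, Pianp and Scn2b, Chgb nearest Nell1, Wdr27 and Slc12a5, and Pcsk2 nearest Gdap1, Kctd16 and Rbfox3. Cpe was nearest Gpm6a, Adcyap1r1 and Acsl6, Pcsk1 nearest Trpc5, Gap43 and Gtf2h3, Pcsk1n nearest Cd200, Retreg2 and Lancl1, and Scg3 nearest Tlcd4, Coq3 and Rasa2.

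Scg2 and Vgf also shared a promoter feature that the choice of genes did not use. RefSeq promoter sequences (build GRCr8) were given for 8 of the 10 genes. Chga and Pcsk1 had none and were not searched. Windows of 300 bases, 250 before the start and 50 after it, were searched on both strands for the cyclic AMP response element TGACGTCA, the sequence bound by CREB-family factors, for its half-site TGACG, which lies inside it, for the GC box GGGCGG and for TATAAA. The full element was in the Scg2 and Vgf promoters, 2 of 8, and in 1.83% of the 33469 promoters in the table. These are shown because they hold the full element, which is in capitals, and only the 250 bases before the start are printed. Both run from 5′ to 3′ on the minus strand, Scg2 at chr9:88256867-88257116 and Vgf at chr12:25277021-25277270.
Scg2: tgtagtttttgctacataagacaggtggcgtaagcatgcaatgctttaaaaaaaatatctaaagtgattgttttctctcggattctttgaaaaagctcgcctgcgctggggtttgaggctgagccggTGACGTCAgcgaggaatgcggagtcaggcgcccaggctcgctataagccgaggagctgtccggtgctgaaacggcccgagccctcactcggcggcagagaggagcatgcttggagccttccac
Vgf: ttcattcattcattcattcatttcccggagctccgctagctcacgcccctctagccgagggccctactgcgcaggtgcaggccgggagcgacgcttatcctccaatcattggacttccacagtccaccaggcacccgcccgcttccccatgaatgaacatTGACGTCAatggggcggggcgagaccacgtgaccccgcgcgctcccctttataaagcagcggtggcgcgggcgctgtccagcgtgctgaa
The element began 123 bases before the start in Scg2 and 90 bases before it in Vgf. The half-site was in 6 of 8 promoters, against 21.2% of all promoters in the table, and in Scg5 it began 7 bases before the start and, on the other strand, at base 15 after it. The GC box was in 6 of 8, against 33.1%, and TATAAA was in Vgf alone of the 8, against 14.2%. A match of letters is a description and not a site of binding.

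In D1 neurons, 7 of the 10 genes were higher in the urolithin A library than in the high anxiety library. They were Chga, Chgb, Scg2, Scg3 and Scg5, the packing proteins and the Pcsk2 chaperone, with Pcsk1 and its inhibitor Pcsk1n. A gene was counted when its log2 ratio was at least 0.32 either way and its counting interval did not include an equal level. By that rule 7.01% of the 9078 features measured in D1 neurons were higher, where measured means at least 150 UMIs over the 3 libraries. The members' median log2 ratio was 0.55, against 0.026 over all measured features. The choice of genes used this contrast, so nothing is read from that count.

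Chga had 361 CPM in D1 neurons of the urolithin A library and 178 CPM in those of the high anxiety library, a log2 ratio of 1.02 (95% counting interval 0.90 to 1.13). Low anxiety D1 neurons had 248 CPM, between these values. Pcsk1n had 687 CPM under urolithin A, 435 CPM in high anxiety and 689 CPM in low anxiety, so urolithin A and low anxiety stood together. Scg2 had 467, 313 and 397 CPM and Chgb 397, 279 and 340.4 CPM in the urolithin A, high anxiety and low anxiety libraries. Scg5, which had the most UMIs of the 10 genes over all nuclei, had 1118, 845 and 1011 CPM. In each of these 5 genes the high anxiety library was the lowest of the 3. Pcsk2, the enzyme itself, ran the other way, with 696 CPM under urolithin A, 863 CPM in high anxiety and 838 CPM in low anxiety, and its ratio of -0.31 (-0.37 to -0.25) was under that limit. There were 0.623 Pcsk2 UMIs for each Scg5 UMI in the urolithin A library and 1.02 in the high anxiety library. Cpe, at 305, 272 and 323 CPM, and Vgf, at 148, 126 and 169 CPM, were under that limit between urolithin A and high anxiety.

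The Chga difference was present in both D1 clusters. In the Ebf1 cluster Chga had 444 CPM under urolithin A, 249.8 CPM in high anxiety and 327 CPM in low anxiety. In the Nmb cluster it had 207, 104 and 149.8 CPM in those libraries. The log2 ratios of urolithin A over high anxiety were 0.83 in the Ebf1 cluster and 0.99 in the Nmb cluster. The Ebf1 cluster, where Chga was higher in every library, held 510 of 753 D1 nuclei under urolithin A, 372 of 665 in high anxiety and 443 of 771 in low anxiety, and with both clusters weighted equally the D1 ratio was 0.88. The Ebf1 cluster alone had 4 of 10 genes higher (5.58% of measured features), and the Nmb cluster 7 of 9 measured genes higher (8.09%). Vgf differed between the clusters. It had 154 CPM under urolithin A and 174 CPM in high anxiety in the Ebf1 cluster, and 137 and 76.1 CPM in the Nmb cluster.

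The share of D1 nuclei with a Chga UMI followed the same order at equal depth. After thinning to 2000 UMIs, 45.2% of 750 nuclei under urolithin A held a Chga UMI, 29.8% of 657 in high anxiety and 35.0% of 766 in low anxiety (exact binomial intervals 41.6 to 48.8%, 26.4 to 33.5% and 31.6 to 38.5%). Unthinned, the shares were 72.9%, 62.6% and 57.5%, at median depths of 6672, 7682 and 6023 UMIs. Nuclei with 3 or more Chga UMIs were 8.67%, 2.13% and 6.01% of the thinned D1 nuclei. The choice of genes used this contrast, and the intervals cover the count of nuclei in 1 library a group, so these shares are a description. The thinned oligodendrocyte shares of 1.39%, 1.54% and 2.17% given above are the background for these values. The high anxiety D1 nuclei were the deepest of the 3 libraries and had the lowest Chga level, and with each nucleus thinned the log2 ratio of urolithin A over high anxiety was 1.06. Mitochondrial UMIs were 1.12%, 1.01% and 0.842% of D1 UMIs in the urolithin A, high anxiety and low anxiety libraries. The 9 astrocyte markers summed to 497, 663 and 582 CPM in D1 nuclei, with Aldh1l1 at 0 under urolithin A, Aldh1l1 and Fgfr3 in high anxiety and Fgfr3 in low anxiety. The 11 GABAergic interneuron markers, of the class with the highest Chga level, summed to 367, 327 and 384 CPM, with Vip at 0 under urolithin A and Lhx6 in high and low anxiety. The part of these in the Chga difference was not tested.

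**Figure D3:**
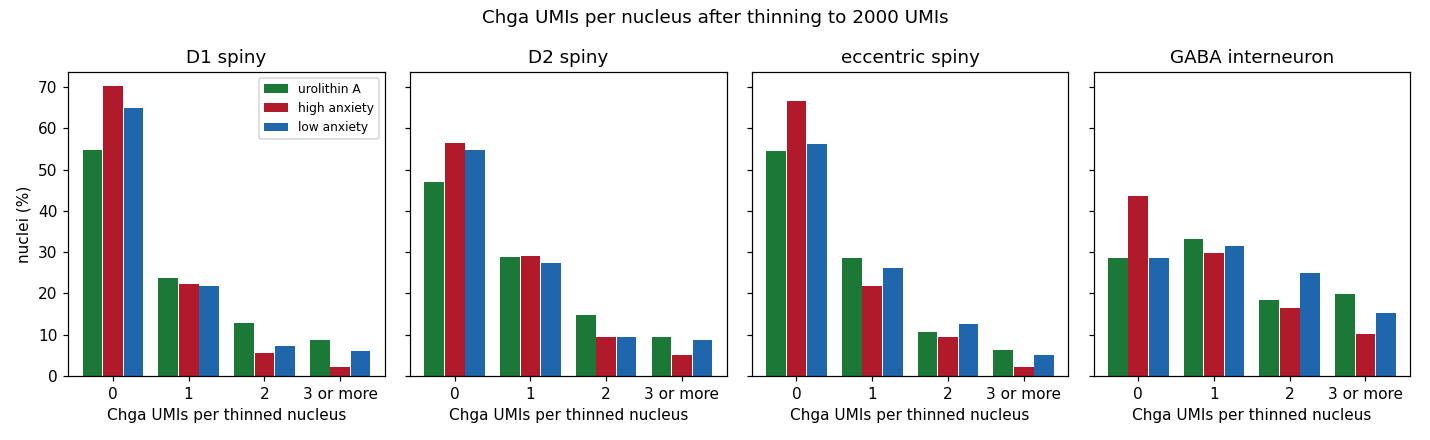
Share of nuclei (%) with 0, 1, 2 or 3 or more Chga UMIs in 4 neuron classes, for the urolithin A, high anxiety and low anxiety libraries. Each nucleus was thinned to 2000 UMIs, and nuclei with fewer were left out. In D1 neurons the bin of 3 or more holds 8.67% of urolithin A nuclei, 2.13% of high anxiety nuclei and 6.01% of low anxiety nuclei.

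D2 neurons of the urolithin A library also had 7 of 10 genes higher than those of high anxiety (8.63% of measured features). Here Vgf was counted and Pcsk1 was not. The members' median log2 ratio was 0.58, against 0.037 over all measured features. Chga had 436 CPM under urolithin A, 267 CPM in high anxiety and 319 CPM in low anxiety, a log2 ratio of 0.71 (0.59 to 0.82) of urolithin A over high anxiety. Scg2 had 346, 208 and 268 CPM, a ratio of 0.74 (0.61 to 0.87), and Scg3 had 53.5, 31.1 and 46 CPM, a ratio of 0.78 (0.44 to 1.13). Vgf had 173 CPM under urolithin A and 118 CPM in high anxiety, with 172 CPM in low anxiety. For these 4 genes the high anxiety library was the lowest. Pcsk2 was again the lowest under urolithin A, at 761 CPM, against 888 CPM in high anxiety and 927 CPM in low anxiety. The Drd2 cluster and the Calcr and Penk cluster each had 7 of 9 measured genes higher (7.2% and 7.46% of measured features). The Calcr cluster held 257 of 536 D2 nuclei under urolithin A, 173 of 508 in high anxiety and 213 of 558 in low anxiety, and Chga was higher in it, with ratios of urolithin A over high anxiety of 0.58 there and 0.52 in the Drd2 cluster.

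Eccentric spiny neurons had 7 of 9 measured genes higher under urolithin A than in high anxiety (6.72% of measured features), with a median log2 ratio of 0.45, against 0.0087 over all measured features. Pcsk1n had 932 CPM under urolithin A and 557 CPM in high anxiety, a ratio of 0.74 (0.63 to 0.86). Pcsk2, at 1338 and 1396 CPM, differed by less than its counting interval. The cluster led by Stac and Exph5 held 16 nuclei under urolithin A, 10 in high anxiety and 104 in low anxiety. Without it, 7 genes were still counted higher (6.53% of measured features).

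GABAergic interneurons had 5 of 10 genes higher (13.1% of measured features) and Pcsk2 lower (8.34%) under urolithin A than in high anxiety. The members' median log2 ratio was 0.36, against 0.051 over all measured features. Pcsk1n had 1637 CPM under urolithin A and 900.2 CPM in high anxiety, a ratio of 0.86 (0.78 to 0.95). In the cluster led by Crh, 6 of 9 measured genes were higher (16.0%), and Pcsk2 had 148 CPM under urolithin A, 258 CPM in high anxiety and 181 CPM in low anxiety. That cluster held 233 of 368, 101 of 189 and 101 of 165 interneurons in the urolithin A, high anxiety and low anxiety libraries. The unnamed cluster led by Itgb6 and Grpr had 1 of 8 measured genes higher (8.51%), which was Pcsk1n at 621 and 411 CPM in the urolithin A and high anxiety libraries.

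**Figure D4:**
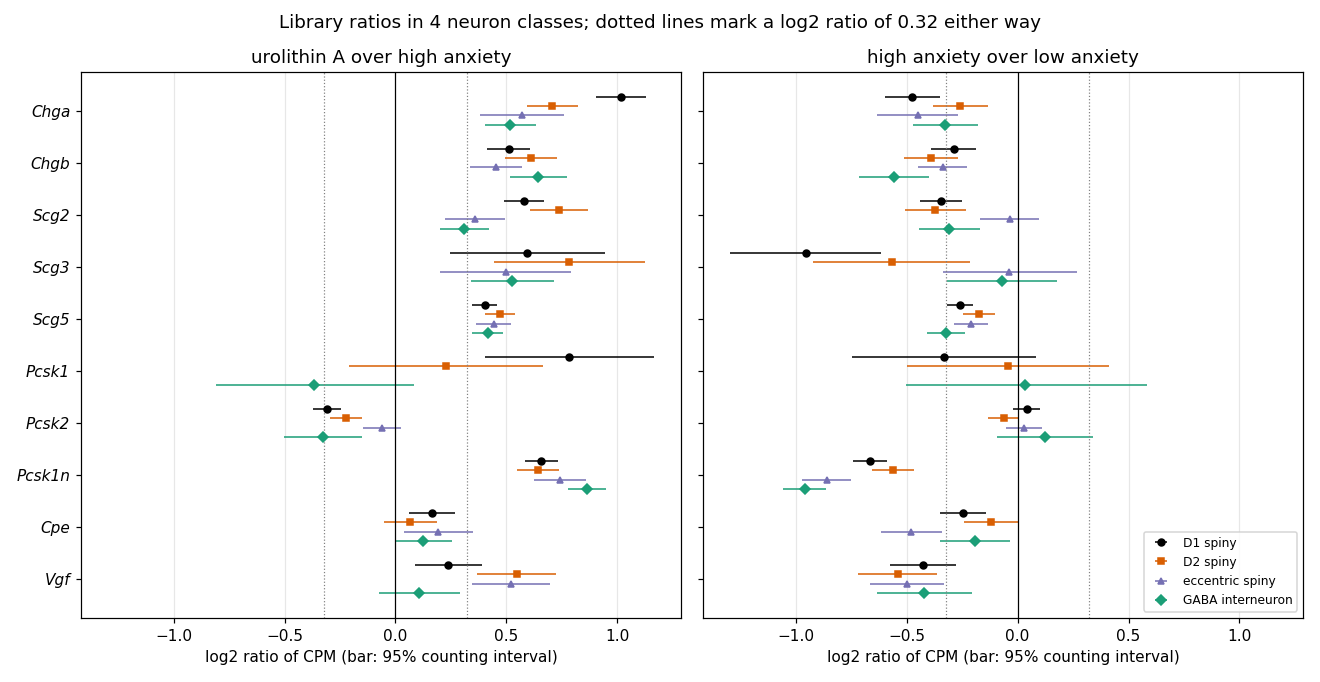
Log2 ratio of CPM in 4 neuron classes, for urolithin A over high anxiety and for high anxiety over low anxiety, with 95% counting intervals and dotted lines at a log2 ratio of 0.32 either way; Pcsk1 had too few UMIs in eccentric spiny neurons. The granins, Scg5 and Pcsk1n lie right of 0 under urolithin A, and Pcsk2 lies left of it (-0.31 in D1 neurons); both panels use the high anxiety library.

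High anxiety and low anxiety were compared next. This comparison uses the same high anxiety library as the one above, so the directions are tied to each other. D1 neurons of high anxiety had 5 of 10 genes lower than those of low anxiety (9.99% of measured features), namely Chga, Scg2, Scg3, Pcsk1n and Vgf. The members' median log2 ratio was -0.34, against -0.017 over all measured features. The largest ratio of the 10 was that of Scg3, with 21.7 CPM in high anxiety and 42 CPM in low anxiety, a log2 ratio of -0.95 (-1.29 to -0.62). Pcsk1n had a ratio of -0.66 (-0.74 to -0.59) and Chga of -0.47 (-0.60 to -0.35). Pcsk2 had 863 CPM in high anxiety and 838 CPM in low anxiety, and the interval of its ratio, -0.02 to 0.10, includes an equal level.

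D2 neurons of high anxiety had 5 of 10 genes lower (9.19%), namely Chgb, Scg2, Scg3, Pcsk1n and Vgf, with Vgf at a ratio of -0.54 (-0.72 to -0.36). Chga differed between the D2 clusters, at 193 CPM in high anxiety and 180.2 CPM in low anxiety in the Drd2 cluster, and 421 and 610.2 CPM in the Calcr cluster. Eccentric spiny neurons had 5 of 9 measured genes lower (9.03%), including Cpe at 389 CPM in high anxiety and 541 CPM in low anxiety, and 4 lower (6.6%) without the Stac cluster. GABAergic interneurons had 5 of 10 lower (11.2%), led by Pcsk1n at 900.2 CPM in high anxiety and 1752 CPM in low anxiety, a ratio of -0.96 (-1.06 to -0.86). In the Crh cluster Pcsk2 and Vgf were higher in high anxiety (9.67% of measured features), with Vgf at 276 CPM in high anxiety and 206 CPM in low anxiety. In the whole class Vgf was among the lower genes. Pcsk2 was not counted there, at 276 CPM in high anxiety and 254 CPM in low anxiety.

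Fewer of the genes were counted between urolithin A and low anxiety. D1 neurons of urolithin A had Chga and Pcsk1 higher than those of low anxiety (7.95% of measured features), with Chga at 361 CPM under urolithin A and 248 CPM in low anxiety, a log2 ratio of 0.54 (0.44 to 0.65). Scg3 was lower (7.03%), at 32.7 CPM under urolithin A and 42 CPM in low anxiety. In D2 neurons Chga, at 436 and 319 CPM, and Scg2, at 346 and 268 CPM, were higher under urolithin A than in low anxiety (9.28%). In eccentric spiny neurons and in GABAergic interneurons Scg3 alone was counted, higher under urolithin A at 139 against 101 CPM and at 285 against 208 CPM (7.92% and 7.26%). Pcsk1n ratios of urolithin A over low anxiety lay between -0.12 and 0.08 in the 4 neuron classes.

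Fewer genes could be measured in glia. In astrocytes 3 of the 10 were measured, and Pcsk1n was counted higher under urolithin A than in high anxiety (5.65%), at 151 and 87.5 CPM. Astrocyte Cpe had a log2 ratio of -0.03 (-0.17 to 0.11) and Scg3 of 0.21 (0.02 to 0.40). In oligodendrocyte precursors Scg3 and Pcsk1n were higher under urolithin A than in high anxiety (6.13%), 2 of 5 measured genes, with Pcsk1n at 924 and 584 CPM. In oligodendrocytes Pcsk1n had 343 and 303 CPM and was not counted, and Scg3 was lower (3.15%), at 42.5 CPM under urolithin A and 65.5 CPM in high anxiety. Of high anxiety over low anxiety, astrocytes had Scg3 and Pcsk1n lower (8.16%), oligodendrocyte precursors Scg3, Scg5 and Pcsk1n lower (7.51%), and oligodendrocytes Scg5 and Pcsk1n lower (5.62%). Of urolithin A over low anxiety, Scg5 was lower in oligodendrocytes (4.13%), at 92.2 and 126 CPM, and Scg5 and Cpe were lower in oligodendrocyte precursors (7.23%). Pcsk1n was thus counted lower in high anxiety than in low anxiety in each of the 7 classes where it was measured. Those classes come from the same 2 libraries, so their directions are not independent of each other. The share of all features lower in every class was not computed. In microglia none of the 10 genes was measured.

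Other genes of the pathway were taken from 4 lists and given beside the members. Of 20 measured enzymes and partners of peptide processing, 3 were higher and 2 lower in D1 neurons of urolithin A than of high anxiety. Over all measured features, 7.01% were higher and 3.57% lower. The median log2 ratio of the 20 genes was 0.07. The higher ones included Pcsk5, a related convertase, at 35.7 CPM under urolithin A and 25.6 CPM in high anxiety. Mme, the membrane enzyme neprilysin that degrades enkephalins, was among the lower ones, at 39.5 CPM under urolithin A and 54.9 CPM in high anxiety. Of 39 measured genes for dense-core vesicle formation and release, 4 were higher and none lower (7.01% and 3.57% of measured features), with a median of 0.03. They included Rab27b, a small GTPase of vesicle docking, at 234 CPM under urolithin A and 161 CPM in high anxiety, and Vamp2, the vesicle SNARE protein, at 44.5 and 32.0 CPM.

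Of the 8 peptide precursors measured in D1 neurons, 4 were higher and 1 lower under urolithin A than in high anxiety (7.01% and 3.57% of measured features). Their median was 0.30. Tac3, the neurokinin B precursor, had 218 CPM under urolithin A, 63.5 CPM in high anxiety and 126 CPM in low anxiety. Cartpt, the precursor of the peptide CART, had 578, 435 and 601 CPM, and Nmb, the neuromedin B precursor, 33.8, 18.5 and 29.1 CPM in those libraries. In these 3 precursors the high anxiety library was the lowest. They were named for being among the measured precursors furthest from 0 in a comparison, so nothing is read from their shared order. The 1 lower precursor is not among them. Of 8 measured activity-induced genes 1 was higher under urolithin A than in high anxiety (7.01% of measured features), with a median of 0.0029. Of high anxiety over low anxiety, 4 of these 8 genes were higher (6.66% of measured features), with a median of 0.37. They included Egr1, an immediate early transcription factor, at 15.7 CPM in high anxiety and 7.65 CPM in low anxiety. Of urolithin A over low anxiety, 4 of the 8 were also higher (7.95% of measured features), with a median of 0.53. Precursors were lower in 4 of 8 for high anxiety over low anxiety (9.99% of measured features), with a median of -0.36.

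For urolithin A over high anxiety in D2 neurons, 4 of 18 measured processing genes were higher and none lower. Of 37 vesicle genes 5 were higher and 3 lower. Over all measured features, 8.63% were higher and 3.45% lower. Gnas, the stimulatory G-protein subunit, had 159 CPM under urolithin A and 84.7 CPM in high anxiety. Qpct, the enzyme that forms the pyroglutamate end of peptides, had 21.0 and 11.0 CPM. Of 5 precursors, Tac3 and Cartpt were higher and Nts, the neurotensin precursor, was lower, at 183 CPM under urolithin A and 229.5 CPM in high anxiety. Penk, the enkephalin precursor, had 2522 CPM under urolithin A and 2036 CPM in high anxiety, a log2 ratio of 0.31 (0.27 to 0.35), under the limit of 0.32. Of 7 activity-induced genes Nr4a3 was lower, at 11.5 and 25.1 CPM.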

How the data were processed

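The data are UMI counts of single nuclei from pooled punches. Per the labels' protocols, the Chromium 3′ kit was used. The counts are as the authors deposited them, 1 value for each feature and barcode. Per the file headers, Cell Ranger 7.1.0 made the matrices, and the submitters' processing notes name the build mRatBN7.2. No deposited barcode had fewer than 506 UMIs. A removal of free RNA is not stated in the labels or headers.

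A nucleus was kept if it had 500 genes or more and no more than 5% mitochondrial UMIs. Scrublet scores (scanpy 1.11.5) were ranked within each library, and the highest 0.8% per 1000 nuclei were removed, 99 in urolithin A, 116 in high anxiety and 97 in low anxiety. From 2000 variable genes without the 10 members, scaled within each library, 30 principal components and 15 neighbours, Leiden clustering at resolution 1 (leidenalg 0.10.2, seed 7) gave 24 clusters, of which 20 were named. A name needed 3 markers at least 2-fold higher, and a cluster stayed unnamed if markers of another class outnumbered its own among its 10 leading genes. Limits within this naming rule were set after the data were seen. The largest unnamed cluster, led by Slc5a11 and Klk6, scored highest for oligodendrocyte markers. It held 242, 271 and 172 nuclei in the urolithin A, high anxiety and low anxiety libraries and is not part of the oligodendrocyte values.

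UMIs were summed over the nuclei of a class in each library and divided by the class total (CPM). Ratios have exact conditional (Clopper-Pearson) 95% intervals, which cover counting error only (scipy 1.17.1). Classes with at least 50 nuclei in every library were compared. Named genes were the 10 members, up to 4 measured genes furthest from 0 per list and comparison, and the 5 genes most like Chga and 3 most like each other member. The members and lists were chosen with earlier results of these data known. The ratio and call steps were tested on simulated data. The alternatives were other filters, doublets kept, resolution 0.5, members in the clustering, median-ratio scaling, means over nuclei, thinning to 2000 UMIs, the largest cluster alone, equal cluster weights, and minimum UMIs of 600 or none.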

Additional observations from a re-analysis of the deposited data

Results flagged for a closer look

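Scg3 moved in opposite directions in different classes under the same contrast, and this difference between classes was not tested. For urolithin A over high anxiety, the log2 ratio was 0.59 in D1 neurons, 0.78 in D2 neurons, 0.50 in eccentric spiny neurons, 0.53 in GABAergic interneurons and 0.53 in oligodendrocyte precursors, and -0.62 in oligodendrocytes. For urolithin A over low anxiety it was -0.36 in D1 neurons, 0.46 in eccentric spiny neurons and 0.45 in GABAergic interneurons. The oligodendrocyte value rests on 64 UMIs under urolithin A and 116 in high anxiety.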

How the results depend on the processing

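No paired analysis was possible because each group had 1 library. Of 60 member ratios in D1 and D2 neurons under each setting, none that was counted changed direction. Dropping the nucleus filter, keeping doublets, a lower resolution, median-ratio scaling and means over nuclei each moved 0 of 60 beyond their counting interval, and the stricter filter (1000 genes, 1% mitochondrial UMIs) moved 20, the largest cluster alone 20, thinning 15, members in the clustering 11 and equal weights 6. In D1 neurons the count for urolithin A over high anxiety was 4 in place of 7 in the largest cluster, with Chga at 0.83 to 1.06 over all settings. Vgf, not counted, turned to -0.21 under the stricter filter, -0.09 with members in the clustering and -0.17 in the largest cluster. In each of these settings a cluster led by Nmb was outside the D1 class. It was unnamed under the stricter filter, with 104, 132 and 4 nuclei in the urolithin A, high anxiety and low anxiety libraries. With members in the clustering it was also unnamed (202, 243 and 296 nuclei), and the largest cluster alone leaves it out. For high anxiety over low anxiety in D1 neurons, 5 became 3 under the stricter filter, 3 with members in the clustering and 3 in the largest cluster. The stricter filter split the D1 clusters by library, at 306, 249 and 0 nuclei and 3, 1 and 546 nuclei in the urolithin A, high anxiety and low anxiety libraries. D2 clusters split likewise, at 286, 339 and 3 nuclei and 3, 3 and 434 nuclei. Ratios against low anxiety under that filter thus compare nuclei of different clusters. For urolithin A over low anxiety in D1 neurons, 3 became 1 with at least 600 UMIs. In D2 neurons, high anxiety over low anxiety gave 3 in place of 5 in the largest cluster, and urolithin A over low anxiety gave 1 in place of 2 when thinned, 1 in the largest cluster and 0 with equal weights. Alternatives chosen after seeing the data gave 2 in place of 5 for high anxiety over low anxiety in D2 neurons with the Itgb6 and Grpr cluster, and 2 in place of 1 for urolithin A over low anxiety in the Crh cluster of GABAergic interneurons. The cause was not tested.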
